A study of Mus musculus with 64 samples.

Results

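NOD/ShiLtJ is an inbred mouse strain that develops autoimmune diabetes, and its hippocampal RNA was set against that of 7 other inbred strains. The NOD/ShiLtJ libraries were taken by the strain label and number 8 of 64, from 4 females and 4 males. The other 56 libraries came from C57BL/6J, 129S1/SvImJ, A/J, NZO/HlLtJ, CAST/EiJ, PWK/PhJ and WSB/EiJ, again with 4 females and 4 males per strain. All are bulk RNA-seq libraries of total hippocampal RNA, and the labels name no treatment, age, blood glucose or diabetes stage, so the diabetic state of these NOD/ShiLtJ mice is not given. Replicates are numbered here in accession order, and no label says that each library is a different animal, so p-values measure the spread between these libraries. Litter and housing are not in the labels and cannot be told apart from strain.

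In NOD mice, T cells destroy the insulin-producing beta cells of the pancreas, and females become diabetic more often than males. The hippocampus is a layered structure of granule and pyramidal neurons that serves memory, wrapped by white matter and bordered by the choroid plexus, and it is rich in receptors for glucocorticoids, thyroid hormone and insulin. Strain differences in its RNA can come from the genes themselves, from cell numbers or from the state of the animal, and these counts do not separate them.

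Total counts ran from 20213189 to 27759221 in the NOD/ShiLtJ libraries and from 16607602 to 27069949 in the others. All 64 libraries were most like another library of their own strain. Levels are given as CPM, the counts of a gene scaled to a common library size. All 13 hippocampal markers looked up were detected in the NOD/ShiLtJ libraries. Prox1, the granule cell transcription factor, lay at 93.1 to 109 CPM in NOD/ShiLtJ and 58.9 to 130 CPM in the others, and Fibcd1, a CA1 marker, at 159 to 212 CPM in NOD/ShiLtJ and 134 to 234 CPM in the others. One NOD/ShiLtJ library stood apart from the other 7. In female 1, 1584 of 11667 genes with a mean of at least 5 CPM lay outside the range of the other 63 libraries, against 739 in female 2 and 94 to 263 in each of the 6 remaining NOD/ShiLtJ libraries. Of the 56 other libraries, 3 had values like it, 2414 in 129S1/SvImJ female 1, 2120 in A/J male 2 and 1583 in WSB/EiJ female 1. Results that rest on females 1 and 2 are given with and without them.

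The strain comparison asked which genes separated NOD/ShiLtJ from the mean of the other strains, each strain and sex weighted equally. It found 478 genes higher (2.75% of 17382 tested) and 202 lower (1.16%) in NOD/ShiLtJ by edgeR's quasi-likelihood test, at a Benjamini-Hochberg adjusted p under 0.05 and a log2 fold change of at least 1. The fold change is the mean of 7 log2 differences, so a gene that is near 0 in a few strains gets a large one. With no fold minimum, 3728 genes were higher (21.4%) and 3162 lower (18.2%), and the median log2 fold change of all genes tested was 0.0075. Of the 478 higher genes, 404 also passed when only females were compared and 403 when only males were. Of the 202 lower genes, 161 passed in females and 153 in males. The females-only comparison called 699 genes (4.02%) and the males-only comparison 666 (3.83%).

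Passing the test did not mean standing apart. The NOD/ShiLtJ mean was the highest of the 8 strain means for 250 of the 478 higher genes, and the lowest for 116 of the 202 lower genes. All 8 NOD/ShiLtJ libraries lay above all 56 others for 16 genes (0.092% of those tested) and below them for 15 (0.0863%). Of these, 9 and 11 are protein-coding genes with an official symbol, and they are described first.

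**Figure D1:**
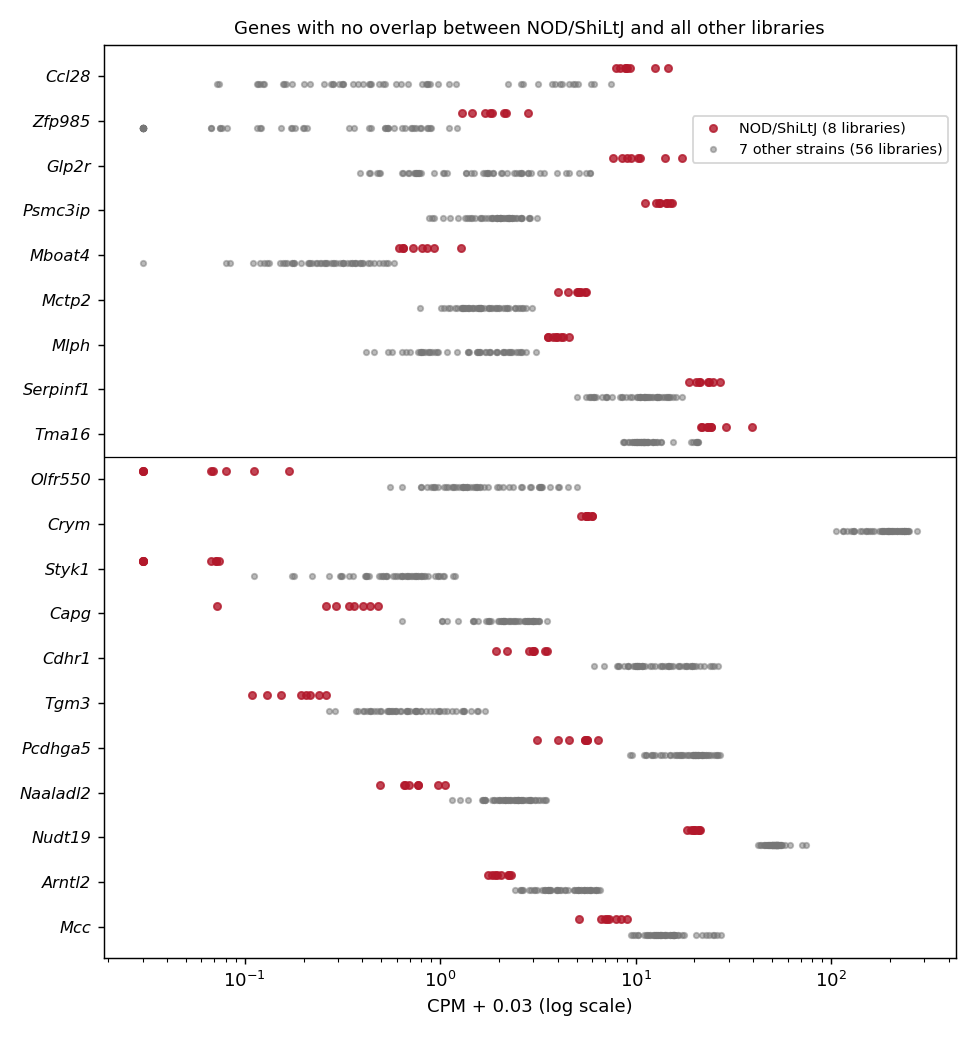
Expression in CPM plus 0.03 on a log axis for the 20 named genes whose 8 NOD/ShiLtJ libraries (red) share no values with the 56 libraries of the other strains (grey), 1 point per library. Genes higher in NOD/ShiLtJ are above the line and genes lower are below it; Crym shows the widest gap, at 5.21 to 5.98 CPM in NOD/ShiLtJ and 106 to 275 CPM in the other strains.

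Among the genes that were higher without overlap, Psmc3ip, a partner protein of the recombinases in meiotic recombination, had the widest gap between the groups. Its 8 NOD/ShiLtJ libraries lay at 11.1, 13.7 and 15.3 CPM (lowest, median and highest), against 0.845, 1.999 and 3.08 CPM in the 56 others. The lowest NOD/ShiLtJ library was thus well above the highest of the other strains, whose means ran from 1.29 CPM in PWK/PhJ to 2.46 CPM in 129S1/SvImJ. The log2 fold change was 2.84 (SE 0.07, edgeR adjusted p = 6.3e-38).

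Mboat4, the enzyme that attaches the fatty acid to ghrelin, was at 0.588, 0.735 and 1.25 CPM in NOD/ShiLtJ, against 0, 0.232 and 0.549 CPM in the other strains. This is a low level, and the gap between the groups was narrow. The log2 fold change was 1.66 (SE 0.21, edgeR adjusted p = 2.17e-09). Ghsr, the ghrelin receptor, also rose, by 0.74 on the log2 scale (SE 0.15, edgeR adjusted p = 3.93e-05). Its values overlapped, with 1.40, 2.04 and 2.72 CPM in NOD/ShiLtJ and 0, 1.14 and 3.73 CPM in the others, and PWK/PhJ had a higher mean (2.89 CPM).

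Mlph, melanophilin, which couples pigment granules to the myosin motor, was at 3.54, 3.90 and 4.54 CPM in NOD/ShiLtJ, against 0.385, 1.53 and 3.06 CPM in the others. Mctp2, a membrane protein with calcium-binding C2 domains, was at 3.97, 5.08 and 5.58 CPM in NOD/ShiLtJ, against 0.759, 1.57 and 2.93 CPM. Both had tight NOD/ShiLtJ values, and the gap was narrow for Mlph. Their log2 fold changes were 1.56 (SE 0.09) for Mlph and 1.59 (SE 0.10) for Mctp2, with edgeR adjusted p-values of 1.46e-21 and 2.61e-20.

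Tma16, Glp2r and Ccl28 were highest in NOD/ShiLtJ females 1 and 2. Tma16, whose yeast counterpart takes part in ribosome assembly, was at 39.2 and 29.1 CPM in females 1 and 2, and at 21.7 to 24.3 CPM in the other 6 NOD/ShiLtJ libraries, against 8.64, 11.03 and 20.9 CPM in the other strains. A/J had the nearest mean, 20.3 CPM. Its log2 difference, 1.12 (SE 0.05, edgeR adjusted p = 1.51e-25), was 0.94 without females 1 and 2, below the fold minimum. Glp2r, the receptor for glucagon-like peptide 2, was at 17.2 and 14.1 CPM in those females and at 7.67 to 10.5 CPM in the other NOD/ShiLtJ libraries, against 0.357, 1.65 and 5.82 CPM in the other strains. For Ccl28, a chemokine of mucosal surfaces, the same split was 14.7 and 12.6 CPM against 7.91 to 9.36 CPM within NOD/ShiLtJ, with the other strains at 0.0426, 0.466 and 7.48 CPM. For Glp2r and Ccl28 the 6 remaining NOD/ShiLtJ libraries still lay above every other library.

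The remaining pair of higher genes are Serpinf1, which encodes the secreted factor PEDF, and Zfp985, a zinc finger gene. Serpinf1 was at 18.7, 22.4 and 27.1 CPM in NOD/ShiLtJ and 5.01, 10.98 and 17.3 CPM in the others, with a log2 fold change of 1.15 that was 0.88 without the wild-derived strains. Zfp985 belongs to a family of near copies on chromosome 4, between which reads can be split, and its log2 fold change of 3.79 rests on strains near 0, such as C57BL/6J with 3 counts in 8 libraries.

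Among the genes that were lower without overlap, Crym encodes mu-crystallin, which holds thyroid hormone T3 in the cytosol. NOD/ShiLtJ libraries had 5.21, 5.64 and 5.98 CPM, against 106, 197 and 275 CPM in the others, lower by a log2 value of -5.06 (SE 0.10) at an edgeR adjusted p of 7.4e-44. NOD/ShiLtJ varied little, with all 8 libraries within 1 CPM of each other, while the strain means elsewhere ran from 141 CPM in CAST/EiJ to 234 CPM in C57BL/6J. The 5 tested genes on each side of Crym on chromosome 7 showed no shared shift. Tmem159 (0.71) and Anks4b (0.58) were higher, 9030407P20Rik (-0.27) and Vwa3a (-0.32) were lower, and 6 did not pass, among them the next gene, Uqcrc2, at -0.04 (SE 0.02, edgeR adjusted p = 0.216).

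Crym is 1 of 18 tested genes of thyroid hormone handling, of which 3 were higher and 4 lower at any fold, with a median log2 fold change of 0.04. Dio2, the deiodinase that makes T3 from T4, had 23.6, 33.5 and 38.6 CPM in NOD/ShiLtJ and 35.0, 49.6 and 84.4 CPM in the others. In 7 of the 8 NOD/ShiLtJ libraries Dio2 lay below all 56 others, and it fell by 0.68 on the log2 scale (SE 0.05, edgeR adjusted p = 6.13e-16). Iyd, which recovers iodide from iodotyrosines in the thyroid and marks CA3 neurons in this tissue, was at 4.19, 5.17 and 5.62 CPM in NOD/ShiLtJ and 0.467, 1.17 and 4.89 CPM in the others. In 6 of the 8 NOD/ShiLtJ libraries Iyd lay above all others, with C57BL/6J the nearest strain at a mean of 3.75 CPM, and the log2 fold change was 1.81 (SE 0.10, edgeR adjusted p = 7.72e-23). Slc7a5 (-0.24) and Slc3a2 (-0.16), the subunits of an amino acid carrier that also moves thyroid hormone, were lower by small amounts, and Thra (0.10), the main brain receptor for T3, and Ncoa1 (0.19), a receptor coactivator, were higher. Of 18 tested genes known to respond to thyroid hormone in brain, 5 were higher and 3 lower, with a median log2 fold change of 0.05.

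Nudt19, a peroxisomal enzyme that degrades coenzyme A, had 18.2, 19.9 and 21.3 CPM in NOD/ShiLtJ and 42.2, 51.6 and 74.3 CPM in the others, and fell by 1.37 (SE 0.05, edgeR adjusted p = 9.68e-31). Over the 8 strain means, the pattern of Nudt19 was the most like that of Crym (Pearson r = 0.9915, a description over 8 points), followed by Rpl37 (0.9731), Cdh19 (0.9713), Hint2 (0.9659) and Naaladl2 (0.9622). These are genes for which NOD/ShiLtJ alone was low and the other 7 strains lay close together. Rpl37, a ribosomal protein gene, was at 73.8 to 82.4 CPM in NOD/ShiLtJ and 96.2 to 172 CPM in the others. Hint2, a mitochondrial hydrolase, was at 4.43 to 7.53 CPM in NOD/ShiLtJ and 8.78 to 18.97 CPM in the others. Both thus also lay outside all other libraries, and both were below the fold minimum. Of 37 tested genes of coenzyme A and peroxisomal fatty acid metabolism, 10 were higher and 8 lower, with a median of -0.0037. Acot13, a thioesterase that cleaves acyl-coenzyme A, fell by 0.59 (SE 0.05, edgeR adjusted p = 2.28e-15), and Nudt7, another coenzyme A hydrolase of the peroxisome, rose by 0.58 (SE 0.16, edgeR adjusted p = 0.00227).

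Capg, an actin-capping protein, was at 0.0418, 0.323 and 0.449 CPM in NOD/ShiLtJ and 0.605, 2.26 and 3.48 CPM in the others (log2 -2.88, SE 0.16, edgeR adjusted p = 3e-22). Naaladl2, which resembles glutamate carboxypeptidase, was at 0.462, 0.700 and 1.03 CPM in NOD/ShiLtJ and 1.12, 2.36 and 3.45 CPM in the others (log2 -1.66, SE 0.14, edgeR adjusted p = 1.11e-14). In both, the lowest library of the other strains was close to the highest of NOD/ShiLtJ. Styk1, a kinase-like membrane protein, had no count in 4 of the 8 NOD/ShiLtJ libraries and at most 0.0441 CPM in the rest, against 0.0821, 0.608 and 1.17 CPM in the others. Tgm3, a transglutaminase, was at 0.0784 to 0.231 CPM in NOD/ShiLtJ and 0.239 to 1.67 CPM in the others, so the groups nearly touched. Mcc, on chromosome 18, fell by 1.01 (5.12 to 8.96 CPM in NOD/ShiLtJ, 9.48 to 27.4 CPM in the others), which became -0.97 without female 3 and -0.96 without male 4, below the fold minimum. The olfactory receptor gene Olfr550 (-5.10) and the protocadherin Pcdhga5 (-1.86) belong to families of near copies, and their values are uncertain.

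The last pair are Cdhr1 and Arntl2. Cdhr1, a cadherin of photoreceptors and olfactory bulb neurons, was at 1.90, 2.95 and 3.49 CPM in NOD/ShiLtJ, against 6.09, 13.5 and 26.3 CPM, and CAST/EiJ was nearest with a mean of 8.90 CPM. Of 14 tested photoreceptor genes, 1 was higher (0 without female 3, male 1 or male 4) and 4 lower, and Cdhr1 was the only one past the fold minimum. Arntl2, a paralogue of the clock activator Arntl, was at 1.72, 1.97 and 2.27 CPM in NOD/ShiLtJ and 2.39, 4.33 and 6.58 CPM in the others. It is taken up again below with the clock genes.

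Since NOD/ShiLtJ is a model of autoimmunity, immune genes were read as lists. List counts at any fold are to be set beside the shares over all genes tested, 21.4% higher and 18.2% lower. Of 36 tested chemokines, interleukins and their receptors, 12 were higher and 12 lower at any fold, with a median log2 fold change of -0.03. Ccl19, a chemokine that draws T cells and dendritic cells, was at 19.9, 21.8 and 26.2 CPM in NOD/ShiLtJ, against 0.092, 0.887 and 24.1 CPM in the others. NOD/ShiLtJ was not alone in this, since NZO/HlLtJ averaged 21.8 ± 1.35 CPM (SD, n = 8) and no other strain exceeded a mean of 8.30 CPM. The log2 fold change was 3.90 (SE 0.08, edgeR adjusted p = 6.92e-42). Il1r1, the interleukin 1 receptor, rose by 1.25 (SE 0.09, edgeR adjusted p = 5.45e-17), with 14.9 ± 2.78 CPM in NOD/ShiLtJ and strain means of 12.8 CPM in C57BL/6J and 12.9 CPM in A/J, and 3.57 to 5.56 CPM in the other 5. Without the wild-derived strains its log2 fold change was 0.92. Ccr1, a chemokine receptor at 0.116 ± 0.11 CPM in NOD/ShiLtJ, was lower by 1.19, which became -0.9995 without male 1, and its high values were those of NZO/HlLtJ (2.18 ± 0.429 CPM).

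Of 28 tested genes proposed as candidates at autoimmune diabetes loci, 9 were higher and 8 lower, with a median of -0.0063. Ubash3a, a regulator of T cell receptor signalling, was at 0.0820, 0.128 and 0.334 CPM in NOD/ShiLtJ and 0.0864, 0.933 and 5.09 CPM in the others, and fell by 2.52 (SE 0.21, edgeR adjusted p = 6.88e-15). Tnfrsf9, the T cell costimulator 4-1BB, was at 0.0370, 0.0659 and 0.125 CPM in NOD/ShiLtJ and 0.0404, 0.359 and 1.23 CPM in the others, and fell by 1.95 (SE 0.29, edgeR adjusted p = 1.45e-07). Both were near the limit of detection in NOD/ShiLtJ and overlapped with 7 and 12 libraries of the other strains. Slc11a1, a metal transporter of phagocytes, rose by 0.77 (SE 0.08, edgeR adjusted p = 1.4e-11), and 6 of its 8 NOD/ShiLtJ libraries lay above all others. Tnfrsf8 averaged 0.675 CPM in NOD/ShiLtJ and its log2 fold change was 1.08, which became 0.49 (edgeR adjusted p = 0.0469) without 129S1/SvImJ, where it averaged 0.0282 CPM, and 0.99 without female 4. Set against C57BL/6J alone, it was lower in NOD/ShiLtJ (log2 -1.17, edgeR adjusted p = 0.000158). Ins2, an insulin gene, was at 0.377 ± 0.298 CPM in NOD/ShiLtJ and 0.0921 ± 0.153 CPM in the others, and its log2 fold change of 2.37 no longer passed the test without females 1 and 2 (1.95, edgeR adjusted p = 0.0569).

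Of 11 tested MHC class II genes, 3 were higher and 2 lower, with 1 lower without any 1 of females 1, 3 and 4 and males 2 and 4. H2-DMb1, a peptide loader of class II molecules, was at 1.63, 2.15 and 2.95 CPM in NOD/ShiLtJ and 0.180, 0.891 and 3.81 CPM in the others, with CAST/EiJ higher at a mean of 2.96 CPM. Its log2 fold change was 1.16 (SE 0.15, edgeR adjusted p = 3.03e-09), and 0.96 without WSB/EiJ. H2-Ob, which restrains class II loading, fell by 1.59 (0.199 ± 0.122 CPM in NOD/ShiLtJ, 0.863 ± 0.633 CPM in the others). The fold change of H2-Eb2, 2.86, depends on 3 strains with no count and is no measure of size, with 0.154 ± 0.0834 CPM in NOD/ShiLtJ and 0.135 ± 0.319 CPM in the others. Among 19 tested genes of MHC class I and peptide loading, 6 were higher and 6 lower, and among 27 tested interferon-stimulated genes, 4 were higher and 6 lower, with medians of -0.08 and 0.03.

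The complement genes that passed were all higher. Of 19 tested, 10 were higher in NOD/ShiLtJ and 0 lower, with a median of 0.26. Itgax, the CD11c integrin of dendritic cells and activated microglia, had 0.441, 1.31 and 1.92 CPM in NOD/ShiLtJ and 0.0409, 0.214 and 0.954 CPM in the others. Of the 8 NOD/ShiLtJ libraries, 7 lay above all others and female 1 did not, and the log2 fold change was 2.27 (SE 0.20, edgeR adjusted p = 2.25e-14). The receptors for the complement fragments C3a and C5a followed: C3ar1 rose by 1.26 (SE 0.11, edgeR adjusted p = 4.3e-14) and C5ar1 by 1.36 (SE 0.20, edgeR adjusted p = 7.4e-08). C3ar1 was at 0.84 without the wild-derived strains. Cd59a, which blocks the membrane attack complex, was at 10.2, 13.5 and 16.6 CPM in NOD/ShiLtJ and 1.75, 5.24 and 15.1 CPM in the others, with WSB/EiJ (10.03 CPM) and NZO/HlLtJ (9.49 CPM) nearest. C1qa rose by 0.55 and C4b by 0.63. Not all 10 were higher against each strain alone. Against C57BL/6J alone C1qc (-0.48) and Itgam (-0.21) were lower, and against NZO/HlLtJ alone C4b (-0.50) and Itgam (-0.305) were lower. None of the other higher complement genes passed as lower against a single strain.

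Microglial markers were higher in 10 of 14 and lower in 0, with a median of 0.20. Trem2, a lipid receptor of microglia, was at 9.57, 14.2 and 17.2 CPM in NOD/ShiLtJ and 4.17, 9.25 and 18.3 CPM in the others (log2 0.68, SE 0.07, edgeR adjusted p = 1.2e-11), and Cx3cr1, the fractalkine receptor, at 48.1, 69.0 and 74.1 CPM in NOD/ShiLtJ and 31.9, 48.3 and 66.0 CPM in the others (0.45, SE 0.05, edgeR adjusted p = 6.25e-12). Both overlapped with the other strains. Of the 10 higher genes, only Tyrobp (0.46) was higher against A/J alone, where Csf1r (-0.25) and Mpeg1 (-0.53) were lower. Against C57BL/6J alone, Sall1 (0.24), P2ry12 (0.44) and Cx3cr1 (0.25) were higher, and Itgam (-0.21) and Mpeg1 (-0.52) were lower. In bulk RNA, more cells of a type and more RNA per cell cannot be told apart. Of 20 lymphocyte markers only 6 had counts enough to be tested, of which 3 were higher (Ptprc 0.26, Ighm 0.55 and Il7r 0.89) and 0 lower. Ptprc is also expressed by microglia.

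Myelin genes were also higher, 14 of 16 tested at any fold with 0 lower and a median of 0.37. Mbp, myelin basic protein, averaged 2260 ± 331 CPM in NOD/ShiLtJ and 1679 ± 316 CPM in the others (log2 0.44, SE 0.06, edgeR adjusted p = 5.23e-09). Mobp rose by 0.51 and Opalin by 0.72. The summed CPM of the list was lowest in female 1 (3952) and 5179 to 7112 in the other 7 NOD/ShiLtJ libraries, against 3032 to 6254 in the other strains. Without female 1, all 16 were higher. Among markers of oligodendrocyte precursors, 6 of 12 were higher and 0 lower, led by Pdgfra (0.35, SE 0.04, edgeR adjusted p = 2.8e-09), and without female 4 the count was 3.

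**Figure D2:**
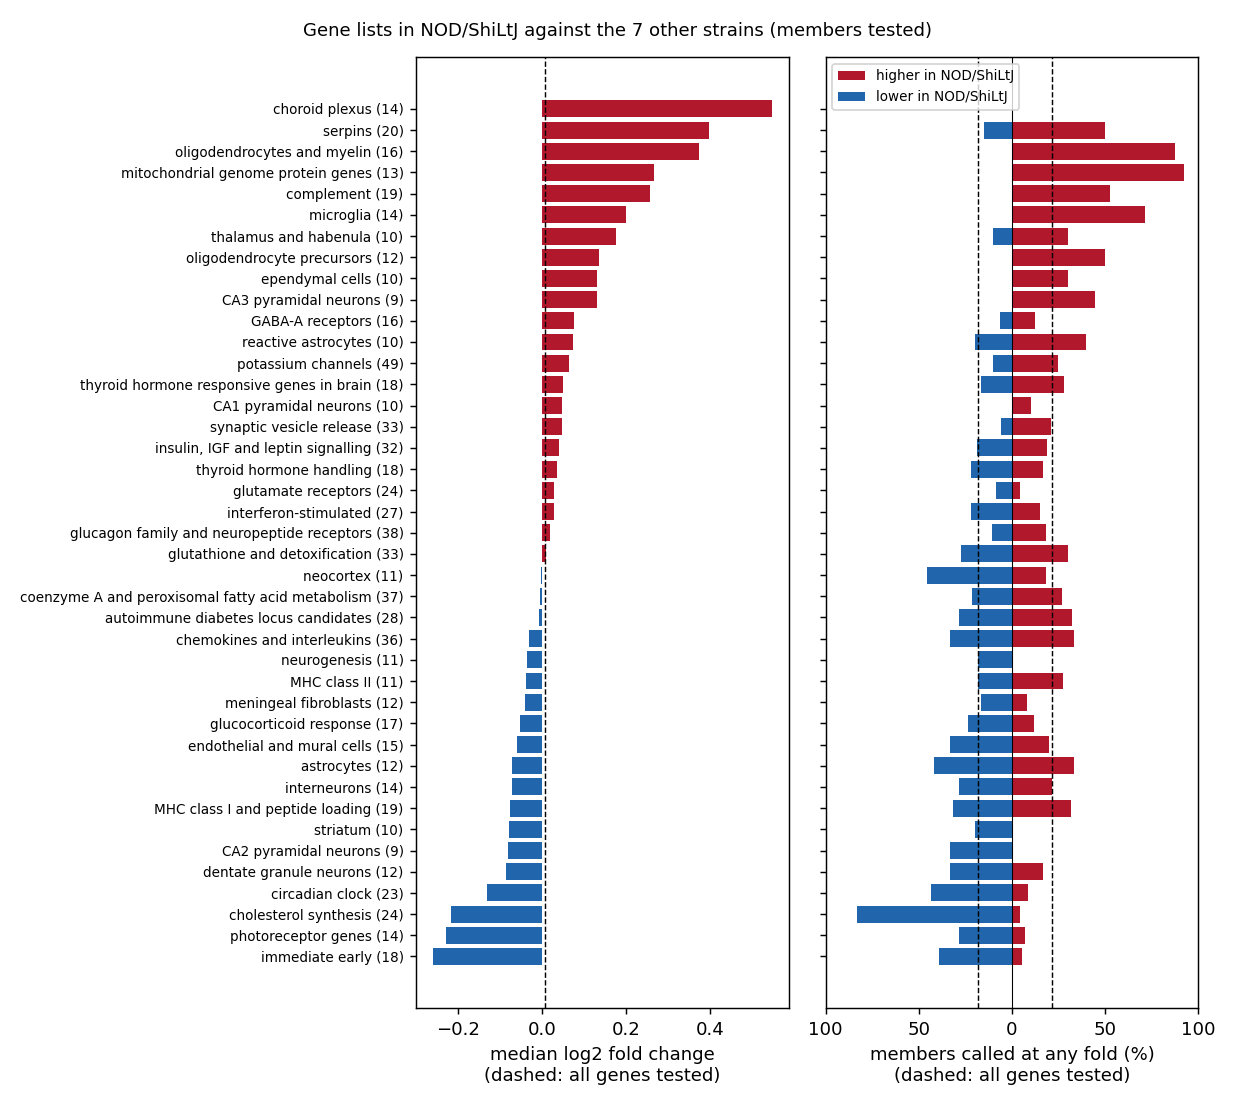
Left, the median log2 fold change (NOD/ShiLtJ minus the other strains) of the tested members of each gene list with at least 9 tested members; right, the percentage of those members with an adjusted p under 0.05, higher in red and lower in blue. Dashed lines give the same values over all 17382 genes tested, and the number tested is in brackets; myelin (14 of 16 higher), mitochondrial genome (12 of 13 higher) and cholesterol synthesis (20 of 24 lower) lie farthest from the dashed lines at right.

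Of the 13 protein genes of the mitochondrial genome, 12 were higher and 0 lower, with a median of 0.27. mt-Nd1, a subunit of complex I, averaged 5014 ± 399 CPM in NOD/ShiLtJ and 3149 ± 1292 CPM in the others (log2 0.80, SE 0.05, edgeR adjusted p = 6.9e-19). WSB/EiJ had a like mean, 5022 CPM, and CAST/EiJ the lowest, 1492 CPM. The rise was not seen against every strain. Against WSB/EiJ alone no gene of the list passed as higher, and mt-Nd3 (-0.33) and mt-Cytb (-0.18) were lower. Against C57BL/6J alone only mt-Nd1 (0.25) was higher, and mt-Co1 (-0.20), mt-Nd3 (-0.30) and mt-Cytb (-0.16) were lower. Against A/J alone all 13 were higher. Without females 1 and 2, 8 of the 13 were higher.

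Serpins, inhibitors of proteases, were higher in 10 of 20 and lower in 3, with a median of 0.40. Serpina3n, a marker of reactive astrocytes, was at 149, 172 and 214 CPM in NOD/ShiLtJ and 37.1, 69.9 and 316 CPM in the others, where 129S1/SvImJ was higher (mean 284 CPM). Serpina1b (3.72), Serpina3i (3.33) and Serpina3g (1.58) have near copies in clusters and are uncertain. Serpinb1a (1.47) and Serpind1 (1.24) rested on low values in CAST/EiJ and PWK/PhJ, and were 0.12 and 0.23 without the wild-derived strains. Markers of choroid plexus, a tissue that borders the hippocampus, were neither higher nor lower in any of 14. Their summed CPM varied from 229 to 3923 among the NOD/ShiLtJ libraries and from 133 to 6987 among the others. With the mean log2 CPM of these markers as a covariate, 75 of 77 named strain genes kept their call. Mcc lost it at -0.99 and Hint2 gained it at -1.01.

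Cholesterol synthesis genes were mostly lower. Of 24 tested genes, 20 were lower in NOD/ShiLtJ and 1 higher, with a median of -0.22. Fdft1, squalene synthase, was at 50.04, 70.1 and 77.4 CPM in NOD/ShiLtJ and 64.3, 84.4 and 122 CPM in the others, and fell by 0.35 (SE 0.05, edgeR adjusted p = 1.9e-07). The summed list was 864 and 1030 CPM in females 1 and 2 and 1274 to 1353 CPM in the other 6 NOD/ShiLtJ libraries, against 1195 to 1917 CPM in the other strains. Without females 1 and 2 the count of lower genes was 9 and the median -0.12.

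Clock and activity genes that passed were also mostly lower. Of 23 tested clock genes, 10 were lower and 2 higher (1 without female 1), with a median of -0.13. Arntl2 fell by 1.1 (SE 0.08, edgeR adjusted p = 1.34e-16) and was the only one past the fold minimum. Hlf, a clock output factor, was at 95.3, 99.2 and 115 CPM in NOD/ShiLtJ and 101, 145 and 185 CPM in the others, with 5 NOD/ShiLtJ libraries below all others, and fell by 0.50 (SE 0.06, edgeR adjusted p = 5.8e-11). Per2 and Dbp each fell by 0.39, and the activators Arntl and Npas2 each rose by 0.17. Of 18 immediate early genes, which follow neuronal activity, 7 were lower and 1 higher, with a median of -0.26; without female 2, 4 were lower, and without female 1 or male 2, 0 were higher. Fos was at 2.14, 3.34 and 6.79 CPM in NOD/ShiLtJ and 2.52, 7.12 and 28.4 CPM in the others (log2 -0.94, SE 0.25, edgeR adjusted p = 0.0024). The fall of these 7 genes was not seen against every strain. Against CAST/EiJ alone all 7 were lower (Fos -1.67). Against C57BL/6J alone only Nr4a2 (-0.40) and Egr1 (-0.49) were. Against NZO/HlLtJ alone none of them passed (Fos -0.29, edgeR adjusted p = 0.56). The labels give no hour of collection.

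CA1 markers were higher in 1 of 10 and lower in 0, CA2 markers higher in 0 of 9 and lower in 3, CA3 markers higher in 4 of 9 and lower in 0, and dentate granule markers higher in 2 of 12 and lower in 4. Lefty1, the CA1 list member that rose (2.77), was at 6.83, 8.14 and 11.7 CPM in NOD/ShiLtJ, inside the spread of the other strains, from means of 0.0511 CPM in NZO/HlLtJ to 14.9 CPM in WSB/EiJ. Lct, lactase, which marks granule cells, fell by 1.09 (13.8, 25.6 and 34.4 CPM in NOD/ShiLtJ, 22.1, 43.1 and 192 CPM in the others), and by 0.88 without females 1 and 2. Among 24 glutamate receptor genes 1 was higher and 2 lower, but 4 were higher without female 1, 0 without female 2 and 2 without male 1, and 5 were lower without female 4. Among 16 GABA-A receptor genes 2 were higher and 1 lower, and 1 was higher without any 1 of females 1, 2 and 3 and males 2 and 4. Of 49 potassium channel genes, 12 were higher and 5 lower, with 2 lower without female 1. The share of higher potassium channel genes was near that of all genes tested, of which 21.4% were higher and 18.2% lower at any fold. Of 32 genes of insulin, IGF and leptin signalling, 6 were higher and 6 lower, shares below those of all genes tested for higher genes and close to them for lower ones.

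Along the chromosomes, 7 runs of at least 3 neighbouring tested genes were called in the same direction, all higher, with 25 genes in all. Of these, 5 lay on chromosome 4, where one held Il11ra2, Ccl19 and Gm12394 and another Tnfrsf8, Zfp990, Gm13212, Zfp980 and Zfp986. Many members are copies of each other, between which reads can be split. One run on chromosome 13 joined Ccl28 to Tmem267 and 3110070M22Rik, and one on chromosome 11 held Psme2b, Tgtp1 and a pair of clone-named genes. Among chromosomes 1 to 19 and the X, the share of tested genes called in either direction was highest on chromosome 14 (6.88%) and 13 (6.70%) and lowest on the X (1.74%) and 16 (2.08%).

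Against each strain separately, at the same thresholds, NOD/ShiLtJ differed from A/J in 661 genes (3.8%), from NZO/HlLtJ in 727 (4.18%), from 129S1/SvImJ in 748 (4.3%), from C57BL/6J in 783 (4.5%), from WSB/EiJ in 1056 (6.08%), from PWK/PhJ in 2000 (11.5%) and from CAST/EiJ in 2021 (11.6%). The share of these genes that was higher in NOD/ShiLtJ ran from 47.7% against NZO/HlLtJ to 66.9% against PWK/PhJ. The 7 comparisons share the NOD/ShiLtJ libraries. By type, 2.82% of 15452 protein-coding genes and 12.7% of 1909 other genes were called against the mean of the strains.

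**Figure D3:**
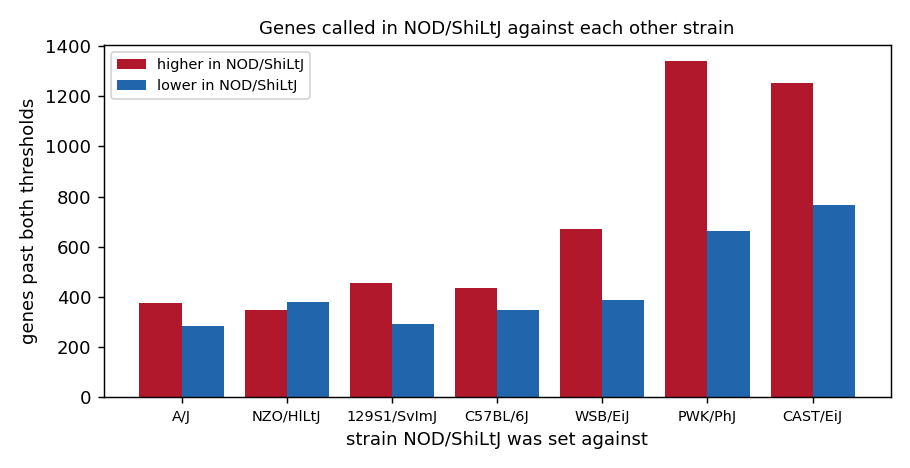
Number of genes past both thresholds (adjusted p under 0.05 and log2 fold change of at least 1) between NOD/ShiLtJ and each other strain, higher in NOD/ShiLtJ in red and lower in blue. NZO/HlLtJ is the strain with more lower than higher genes (347 higher, 380 lower), and PWK/PhJ and CAST/EiJ have the most of both.

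Within NOD/ShiLtJ, females were compared with males in the same fit. Of the genes tested, 92 were higher (0.529%) and 31 lower (0.178%) in females at an edgeR adjusted p under 0.05, with no fold minimum. On autosomes, 86 were higher and 22 lower; the mean of the other strains had 18 genes, 4 of them autosomal. The female minus male difference of NOD/ShiLtJ differed from that of the 7 other strains for 88 genes (0.506%). Almost all of this count depended on female 1. Without it, 8 genes were called, 1 of them on an autosome, and 2 genes, Acap3 among them, differed from the other strains. Leaving out another single library also moved the counts by over 1.5 times: without female 3 they were 355 and 276, without female 4 445 and 353, without male 1 39 and 8, without male 3 52 and 15, and without male 4 42 and 13.

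Acap3, a GTPase-activating protein for ARF, was at 220, 172, 172 and 178 CPM in females and 150, 149, 147 and 145 CPM in males. All 4 females lay above all 4 males and above the other strains (135 to 169 CPM). Its difference of 0.33 (SE 0.06, edgeR adjusted p = 0.000889) did not pass without female 1 (0.24, edgeR adjusted p = 0.0760). The 7 other genes named for the sex difference were higher in females, Pwwp2b by 0.42, Retsat, which saturates retinol, by 0.50, Bhlhe41, a clock repressor, by 0.41, Strn4 by 0.25, Git1 by 0.34, Pik3r2 by 0.22 and Lrfn3 by 0.30. None of these 7 passed without female 1, with edgeR adjusted p-values of 0.14 to 0.305, and Lrfn3 also did not pass without female 2 (0.0598) or male 3 (0.0515).

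**Figure D4:**
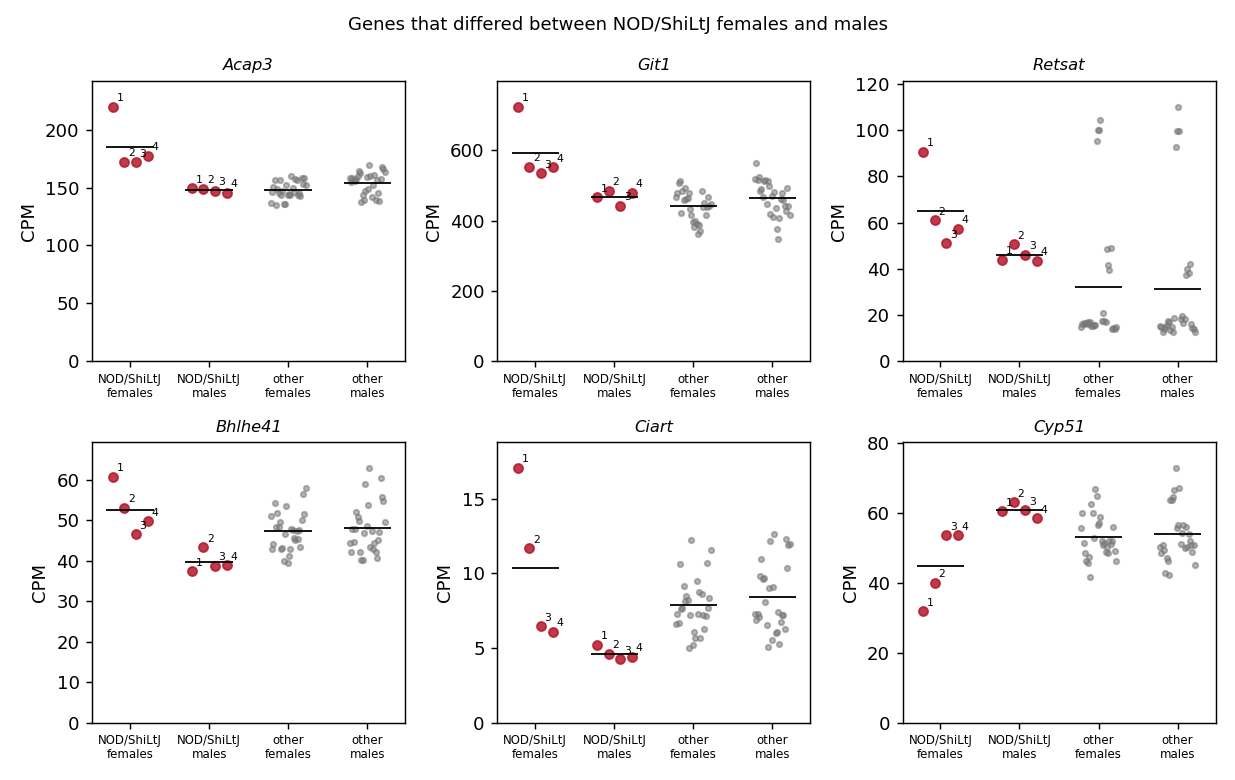
CPM of 6 genes by sex in NOD/ShiLtJ (red, numbered by library) and in the 7 other strains (grey), with bars at the mean of each group. Female 1 is the NOD/ShiLtJ library farthest from the males in each of the 6 panels, with 220 CPM for Acap3 and 724 CPM for Git1.

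Glucocorticoid response genes showed most plainly how female 1 differed. Glucocorticoids from the adrenal gland bind the glucocorticoid receptor, which binds DNA at a palindrome of AGAACA and TGTTCT spaced by 3 bases and raises genes such as Fkbp5, Sgk1, Per1 and Plin4. Clock activators bind the E-box CACGTG, found in the promoters of the Per genes. Promoters of 4 genes with high values in female 1 are shown to let these motifs be seen. Each window was picked among those that hold a match, so the presence of a motif in these 4 is not a result. Each is given as the 250 bases before a transcription start, 5′ to 3′ on the gene's strand, from RefSeq with the build GRCm38.p6. Every match to either motif, and to the looser form of the first described after them, is in capitals. They are chr10:21993640-21993889 (+) for Sgk1, chr4:133240568-133240817 (+) for Map3k6, chr11:69098699-69098948 (+) for Per1 and chr3:95882229-95882478 (-) for Ciart.
Sgk1: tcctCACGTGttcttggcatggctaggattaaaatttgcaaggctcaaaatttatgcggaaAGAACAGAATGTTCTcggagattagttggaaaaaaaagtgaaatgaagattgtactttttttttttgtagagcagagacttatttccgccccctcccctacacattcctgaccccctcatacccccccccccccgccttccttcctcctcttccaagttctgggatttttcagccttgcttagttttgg
Map3k6: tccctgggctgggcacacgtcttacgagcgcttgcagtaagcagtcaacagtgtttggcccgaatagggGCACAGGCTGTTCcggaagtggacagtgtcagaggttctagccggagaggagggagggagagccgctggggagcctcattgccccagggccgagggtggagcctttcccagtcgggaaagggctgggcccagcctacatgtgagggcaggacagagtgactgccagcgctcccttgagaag
Per1: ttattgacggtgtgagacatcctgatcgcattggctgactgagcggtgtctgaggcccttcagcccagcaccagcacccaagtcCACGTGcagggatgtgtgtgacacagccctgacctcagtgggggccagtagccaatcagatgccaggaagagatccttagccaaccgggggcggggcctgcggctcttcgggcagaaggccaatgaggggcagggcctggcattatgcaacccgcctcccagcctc
Ciart: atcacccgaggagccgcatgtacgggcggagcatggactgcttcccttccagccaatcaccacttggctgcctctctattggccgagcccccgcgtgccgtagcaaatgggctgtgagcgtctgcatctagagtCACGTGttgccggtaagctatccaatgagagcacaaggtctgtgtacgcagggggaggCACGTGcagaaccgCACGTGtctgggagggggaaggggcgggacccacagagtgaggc

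Searched on both strands, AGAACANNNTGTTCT was in 3 of 32851 such windows (0.00913%), and Sgk1, a kinase that glucocorticoids induce, holds one of them in 1 of its 6 windows, with its first base 189 bases before the start. The looser form GNACANNNTGTNC was in 127 windows (0.387%), which belong to 119 of 27025 genes (0.44%). Among these genes were Sgk1 and Map3k6, 2 of the 15 glucocorticoid list genes with a window. CACGTG was in 1978 windows (6.02%), which belong to 1854 genes (6.86%). It was in 5 of 19 clock genes with a window (Bhlhe41, Ciart, Cry1, Per1 and Tef). It was also in 3 of the 15 glucocorticoid genes (Fkbp5, Per1 and Sgk1). The copy in the Sgk1 window shown starts 246 bases before the start, and the 3 copies in the Ciart window start 116, 58 and 44 bases before the start. A match says only that the letters are present.

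In female 1, Sgk1 was at 207 CPM, against 112 CPM in female 2, 62.1 and 55.3 CPM in females 3 and 4, 58.2 to 65.0 CPM in the males and 51.1 to 157 CPM in the other strains. Plin4, a lipid droplet protein, was at 41.7 CPM in female 1, 9.32 CPM in female 2 and 1.65 to 3.09 CPM in the other 6, with the other strains at 1.63 to 17.2 CPM. Cdkn1a, the cell cycle inhibitor p21, was at 40.7, 9.22, 4.85 and 5.73 CPM in females 1 to 4 and 4.82 to 6.76 CPM in the males, with the other strains at 3.6 to 9.28 CPM. Female 1 lay above all 56 libraries of the other strains for each of these, and female 2 lay inside their range.

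Fkbp5, a chaperone that dampens the receptor, was at 121 CPM in female 1 and 54.95 to 75.5 CPM in the other 7, with the other strains at 59.7 to 104 CPM. Map3k6, a stress kinase, was at 6.40 CPM in female 1 and 0.574 to 1.65 CPM in the other 7, against 0.507 to 4.69 CPM in the other strains. The clock gene Per1 was at 109 CPM in female 1, within the range of the other strains (48.4 to 113 CPM), and Ciart, a clock repressor, at 17.1 CPM, above it (5.01 to 12.7 CPM). Over the glucocorticoid list, the summed level was 1265 CPM in female 1, 888 CPM in female 2 and 727 to 779 CPM in the other 6, against 685 to 992.5 CPM in the other strains.

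In the strain comparison, 4 of 17 glucocorticoid response genes were lower and 2 higher, with a median of -0.05. Without female 1, 10 were lower and 1 higher, with a median of -0.20, and without females 1 and 2, 11 were lower and 1 higher, with a median of -0.28. The count of lower genes was 2 without any 1 of females 2, 3 and 4 and males 1, 3 and 4. Hsd11b1, which regenerates the active hormone inside cells, fell by 0.55 (SE 0.05, edgeR adjusted p = 5.6e-14), and Tsc22d3, the glucocorticoid-induced leucine zipper, by 0.41 (SE 0.08, edgeR adjusted p = 4.2e-05). Nr3c2, the mineralocorticoid receptor, rose by 0.21 (SE 0.05, edgeR adjusted p = 0.0016).

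In the comparison of NOD/ShiLtJ females with males, 5 of 17 glucocorticoid genes and 5 of 23 clock genes were higher in females, and 3 of 24 cholesterol genes (Cyp51, Msmo1 and Idi1) were lower. Without female 1, the count was 0 in each list. The glucocorticoid count was 10 without female 3, 11 without female 4 and 3 without male 1 or male 4, and the clock count 3 without male 1 or male 3 and 2 without male 4. The cholesterol count was 6 without female 3, 9 without female 4 and 1 without female 2 or any 1 male. Without female 1, the median female minus male log2 difference of the glucocorticoid list was 0.20, against 0.54 with it. Other lists moved with it in female 1: the summed neurogenesis markers were 233 CPM there and 325 to 389 CPM in the other NOD/ShiLtJ libraries, with the other strains at 309 to 426 CPM. Ugt8a, an oligodendrocyte enzyme that makes myelin lipid, was at 14.5 CPM in female 1, below all 56 libraries of the other strains. Choroid plexus markers were high in females 1 and 2 (2956 and 3923 CPM) and low in females 3 and 4 (229 and 256 CPM). With the mean log2 CPM of these markers as a covariate, 148 genes were called between females and males, against 123 without it. For the difference from the other strains, 89 were called, against 88. The genes named for the sex difference kept their calls.

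**Figure D5:**
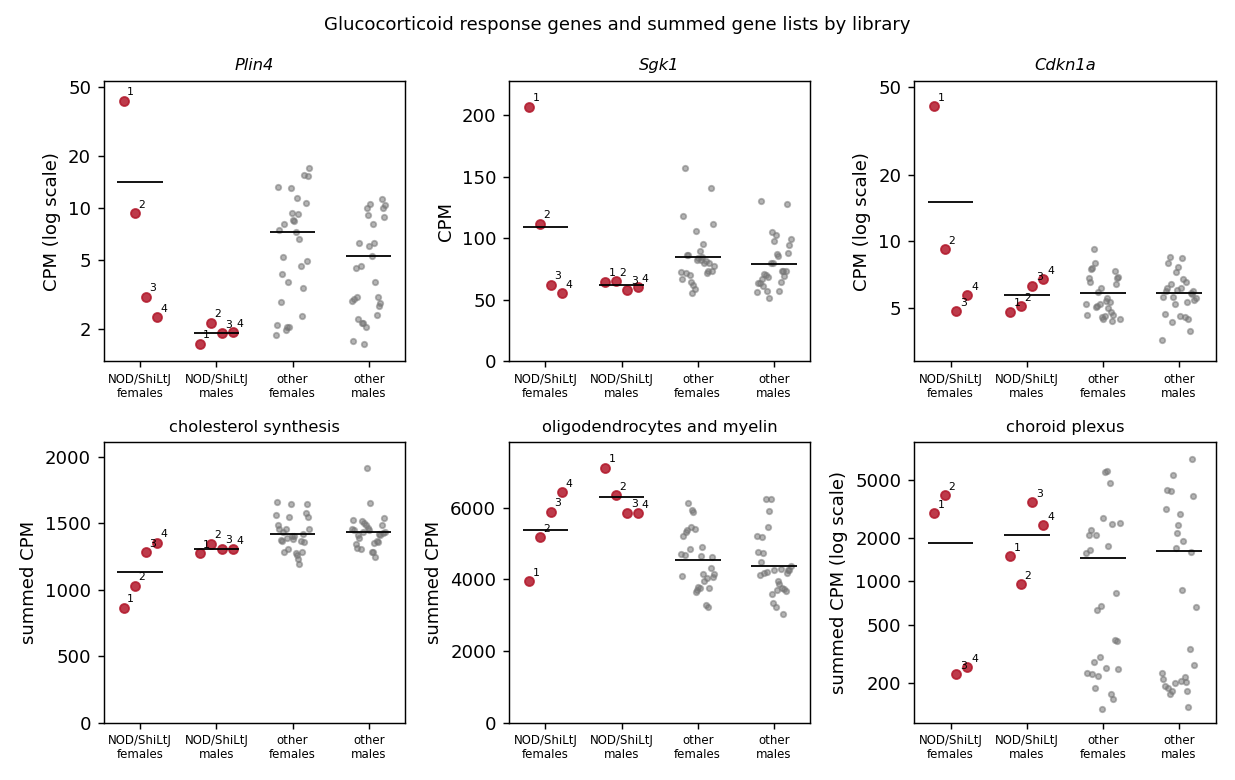
CPM of 3 glucocorticoid response genes and summed CPM of 3 gene lists by library in NOD/ShiLtJ females and males (red, numbered) and in females and males of the 7 other strains (grey), with bars at the group means; Plin4, Cdkn1a and the choroid plexus sum are on log axes. Female 1 is the highest of all libraries for Plin4 (41.7 CPM), Sgk1 (207 CPM) and Cdkn1a (40.7 CPM) and the lowest for the cholesterol sum (864 CPM).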

How the data were processed

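The authors deposited gene-level read counts for each of the 64 hippocampus libraries, annotated with Ensembl release 105 as the table is named. The genome build is GRCm39, per the submitters' processing notes, and libraries were made with a TruSeq kit, per the labels' protocols. The aligner, the counter and the use of strand are not given in the sources used here, so reads of a gene and its antisense partner cannot be told apart. Reads were counted on 1 reference genome, which could lower counts where a strain differs from it. Of the 64 column names, 50 matched a library title exactly and 14 were 1 digit short but matched 1 title only. Symbols and types came from GENCODE M21 (GRCm38) and matched 32095 of 32227 genes (99.6%).

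Counts were tested as deposited in R 4.3.3 with edgeR 4.0.16 (quasi-likelihood test, TMM scaling, 16 groups of 4 libraries, 48 residual degrees of freedom). The edgeR filter (minimum count 10, minimum total 15) left 17382 genes (53.9%). Each p-value was adjusted by the Benjamini-Hochberg method over all genes tested, at a threshold of 0.05, and the strain comparisons also needed a log2 fold change of at least 1. The prior count was 2. Levels are TMM-scaled CPM, which are not per length, so they are compared between libraries and not between genes. Intervals from counting were not needed, since the spread over libraries is given.

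Counts were simulated with 200 changed genes among 16917, drawn from genes with a mean of at least 1 CPM. Calls on them needed an adjusted p under 0.05 and no fold minimum. Scored so, the strain comparison recovered 100% at log2 changes of 1, 1.5 and 2, with 4.31% false calls. Recovery under the fold minimum was not measured. Among 16922 genes the sex comparison recovered 92.5%, 96.2% and 96.2%, with 5.45% false calls. No simulated library was made to stand apart as female 1 does, so these values do not cover that case. Alternatives were DESeq2 1.42.0, other scaling, filters and thresholds, an additive model, a choroid plexus covariate, and leaving out libraries or strains.

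Named genes are protein-coding with an official symbol. They are the called genes with no overlap, the 10 largest others in each direction with a mean of at least 1 CPM, called and defining list members, the 6 autosomal genes with the smallest p for sex and 6 for its difference between strains, the neighbours of Crym and the 5 genes most like it. Some items that the rule names are not reported here. The members, lists and tests were chosen with earlier results of these data known.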

Additional observations from a re-analysis of the deposited data

Results flagged for a closer look

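Within the 4 NOD/ShiLtJ libraries of a sex, 184 named values were checked for a library far from the other 3, by Dixon's criterion at its 95% critical value. This set apart 12, and chance sets apart about 1 in 20. Of the 12, 6 were in female 1: Acap3 at 220 CPM, Git1 at 724 CPM and the summed clock genes at 1844.4 CPM were high, Mctp2 at 3.971 CPM and Pcdhga5 at 3.089 CPM were low, and Styk1 was at 0.04412 CPM where the other females had no count. In female 2, Crym was at 5.532 CPM, a difference of about 0.1 CPM from the others, and the summed dentate granule markers were at 486.64 CPM. Among males, Mcc was at 5.124 CPM and Myoc at 6.271 CPM in male 4, Hmga1b at 0.6588 CPM in male 3, and Styk1 at 0 CPM in male 1.

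The female minus male difference of NOD/ShiLtJ differed from that of the 7 other strains for 88 genes by edgeR's quasi-likelihood test of the difference itself. Those named were Acap3 (0.39), Pwwp2b (0.47), Git1 (0.41), Pik3r2 (0.27) and Lrfn3 (0.35) on the log2 scale. Without female 1, 2 genes were called, Acap3 among them.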

How the results depend on the processing

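Under DESeq2, another scaling, an additive model and the choroid plexus covariate, the strain counts stayed within 1.5 times. They were 3728 higher and 3162 lower with no fold minimum, 118 and 54 at a log2 fold change of 2, and 97 and 62 at a mean of at least 50 counts. Without a count filter, 1332 were higher, 1158 were called in females, 1080 in males, and 1000, 3181 and 3115 against A/J, CAST/EiJ and PWK/PhJ. Without the wild-derived strains 285 were higher, and 13 named strain genes lost their call. That setting also moved 9 of 43 list medians, by at least the SD of the list's mean log2 CPM over the NOD/ShiLtJ libraries. Leaving out each NOD/ShiLtJ library in turn gave 466 to 530 higher, 194 to 214 lower, and 16 to 24 above and 15 to 17 below all others. Without females 1 and 2, an alternative added after seeing the data, 30 lay above all others.

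The sex difference was less stable. It called 279 genes under DESeq2, 60 without a count filter, 9 when only NOD/ShiLtJ libraries were fitted, and 8 to 445 when each library was left out. Its difference from the other strains was called for 213, 26 and 2 to 353 genes under DESeq2, without a filter and with each library left out. Without females 1 and 2 the counts were 8 and 1. The cause of these shifts was not tested. Among named genes called in the main fit or in an alternative, none turned its direction. Turns of genes called in neither were not counted. No paired analysis was possible because the labels number no replicates. Low levels limit Styk1, Ins2, Mboat4 and most lymphocyte markers.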
